A study of Mus musculus with 288 samples.

Results

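The motile cilia genes examined here are 38 genes that build the beating cilia of the airway and of the ependyma and choroid plexus of the brain, found by exact symbol among the 35904 genes of the expression tables. RNA was sequenced from 6 tissues (lung, cerebellum, kidney, liver, muscle and heart) of wild-type male C57BL/6J mice, 8 weeks old, that were kept in normoxia (room air) or exposed to intermittent hypoxia (IH). The exposure lasted 7 days in the light, resting phase, after which all mice spent 2 days in constant darkness with room air. Tissues were collected on the last of these days every 3 hours at 8 time points from 3 mice per time point and treatment, which gives each tissue 24 libraries in normoxia and 24 after IH. Values are TPM, the length-corrected share of a gene among all transcripts of a library, and the read depth of each library is unknown. Whole tissue was sequenced, so fewer ciliated cells and less RNA per ciliated cell cannot be told apart. The defining markers of each tissue had their highest median in that tissue. However, the 5 lung markers summed to between 133000 and 262000 TPM in normoxic lungs and between 33500 and 201000 TPM after IH. In addition, the IH cerebellum library of replicate 3 at 1:30 and the IH lung library of replicate 2 at 1:30 correlated least with the other libraries of their tissues. The lowest mean correlation of all libraries, 0.70, was that of the IH liver library of replicate 2 at 13:30. Summed heart markers reached 6330 TPM in an IH liver and 7310 TPM in an IH cerebellum. Summed skeletal muscle markers reached 5770 TPM in a normoxia cerebellum.

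A motile cilium beats because dynein arms, motors attached along the axoneme of microtubules, slide neighbouring microtubule doublets past each other. The outer and inner arms are built from heavy chains, held by docking proteins, spaced by a molecular ruler of coiled-coil proteins and controlled by the nexin-dynein regulatory complex, the radial spokes and the central pair of microtubules. Foxj1, a forkhead transcription factor, switches on the genes of the motile cilium, while Rfx2 and Rfx3 bind the X-box motif in promoters of cilia genes. Mcidas and Ccno act earlier, when a cell commits to making many cilia. In the lung these cilia move mucus along the airways.

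The 38 genes were grouped by role. The 5 transcription factors and switches were Foxj1, Rfx2, Rfx3, Mcidas and Ccno. The 12 dynein arm chains were Dnah1, Dnah2, Dnah3, Dnah5, Dnah6, Dnah7a, Dnah7b, Dnah9, Dnah10, Dnah11, Dnah12 and Dnali1, and the 4 docking and assembly factors were Ccdc114, Armc4, Lrrc6 and Zmynd10. Ccdc39, Ccdc40 and Drc1 belong to the ruler and the nexin-dynein regulatory complex, and Rsph1, Rsph4a, Rsph9, Spag6l, Spag16, Spag17 and Hydin to the radial spokes and central pair. The rest were 3 tektins, Tekt1, Tekt2 and Tekt4, and 4 other cilium proteins, Ccdc113, Sntn, Tppp3 and Pifo. Promoters of 31 of them were found in the set of RefSeq promoters that was searched (GRCm38.p6), each with 250 bases before and 50 bases after a start of the gene. Foxj1, Dnah3, Armc4, Lrrc6, Rsph1, Rsph4a and Tppp3 were not in that set. The X-box, searched on both strands as GTNNCC and GGNNAC with 2 bases of any kind between them, was present in 7 of the 31 genes (22.6%) and in 2.27% of the 17206 genes of the tables with a promoter. It was also present in 9 of 34 genes of intraflagellar transport and the primary cilium (26.5%). The windows below are shown because these sites carry the letters that Rfx proteins are known to bind. The capitals mark the X-box, each window is written 5′ to 3′ along the gene, and position 0 is the annotated RefSeq start that the window belongs to. For Pifo and Tekt4 that start lies 13149 and 16975 bases inside the gene, and the outer start of Pifo held no X-box.
Ccno, chr13:112987575-112987604, plus strand, X-box from position -219: gggctgcgGTTGCCACGGTGACgacagacg
Pifo, chr3:106001496-106001525, minus strand, X-box from position -20: gcggttccGTTCCCTTGGCAACgtagtaca
Rsph9, chr17:46144185-46144214, minus strand, X-box from position -6: ggctcaggGTCTCCATGGAGACagcttcta
Tekt4, chr17:25471422-25471451, plus strand, X-box from position -160: ccccacctGTGTCCTGGGAAACaaactcat
Zmynd10, chr9:107547296-107547325, plus strand, X-box from position 0: gctccctcGTTTCCATGGCGACgacgactc
Rfx2 and Spag6l held an X-box from position 34, GTAGCCGTGGAGAC and GTTGCCCTGGAGAC, at the edge of their windows.

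Other spellings of these motifs gave other counts. Another spelling of the X-box, GTTNCC and GNAAC with 3 bases of any kind between them, was present in 4 of the 31 genes (12.9%), namely Hydin, Pifo, Spag16 and Tekt4, against 0.895% of genes in the tables. The short X-box GTTNCCAT, whose letters overlap the full X-box in Zmynd10, was present in 7 genes (22.6%) against 4.67%. The forkhead motif TGTTTNC, which overlaps the short X-box in Dnah5, was present in 10 genes (32.3%) against 20.7%, and with fixed letters, TGTTTAC, in 1 gene (3.23%), Sntn, against 3.5%. The 250 bases before the start of Dnah5, an outer arm heavy chain, are shown because Dnah5 was among the genes called in the lung (chr15:28203516-28203765, plus strand). The capitals mark the short X-box, which lies on the other strand and so reads ATGGAAAC.
Dnah5: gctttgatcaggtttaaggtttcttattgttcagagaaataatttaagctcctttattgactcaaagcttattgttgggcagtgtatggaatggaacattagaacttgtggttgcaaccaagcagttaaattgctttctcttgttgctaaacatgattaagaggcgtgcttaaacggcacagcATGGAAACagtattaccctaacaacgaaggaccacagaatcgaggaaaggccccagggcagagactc

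The genes were expressed most in the lung. In normoxia 35 of 38 had their highest mean in the lung, while Rfx3 and Dnah7b were highest in the cerebellum and Zmynd10, a dynein assembly factor, in the kidney. A mean of at least 1 TPM was reached by 37 genes in the lung, 20 in the cerebellum, 4 each in the kidney, muscle and heart and 0 in the liver. The median of the 38 means was 7.22 TPM in the lung, 1.13 in the cerebellum and 0.127 in the kidney. Tppp3, a microtubule-binding protein of ciliated cells that other tissues also make, had the highest lung mean, 556 ± 50.7 TPM (SD, n = 24). It was followed by Foxj1 at 57.1 ± 12, Rsph1 at 43.1 ± 12.7, Rsph9 at 24.9 ± 5.59 and Pifo at 20.1 ± 5.29 TPM.

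**Figure D1:**
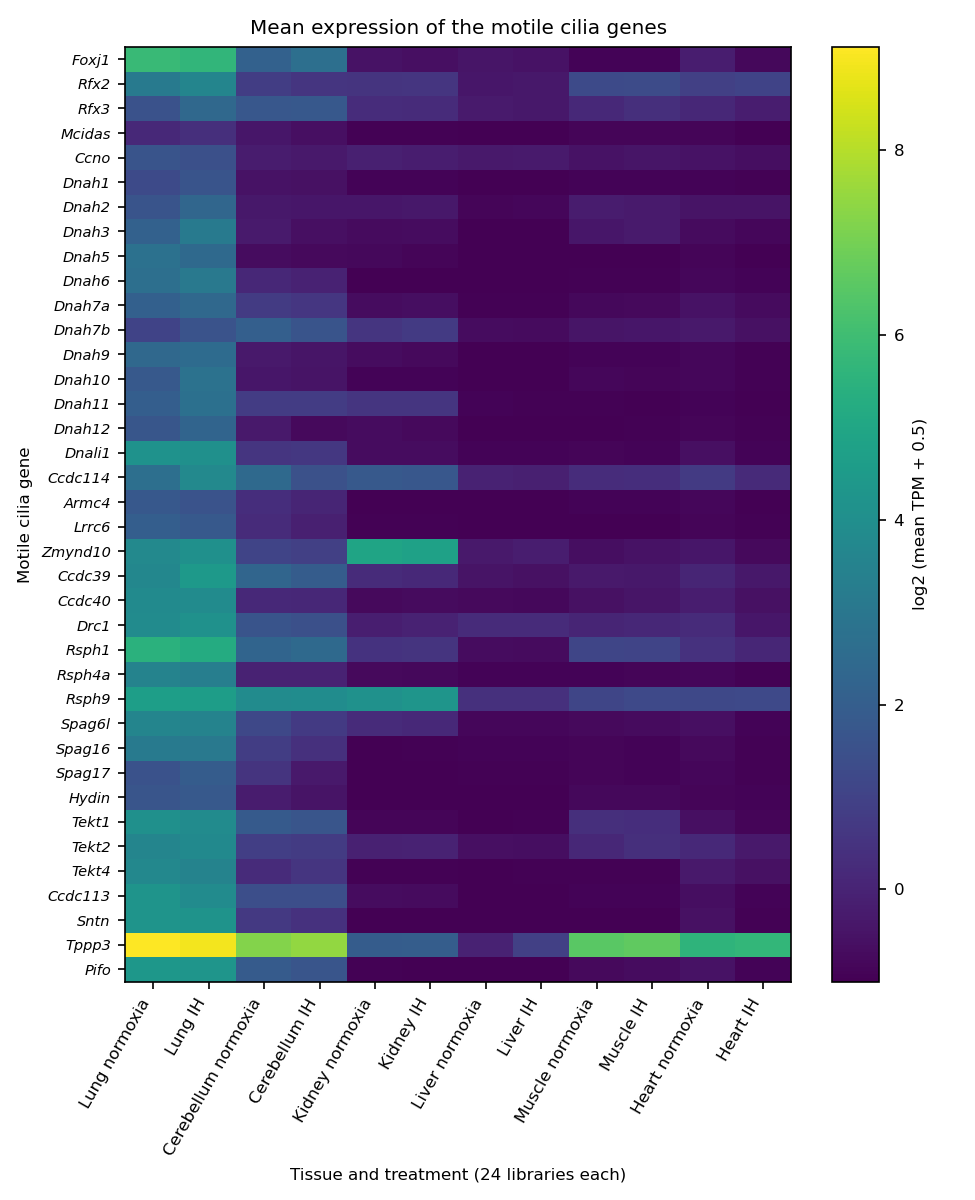
Mean TPM of the 38 motile cilia genes (rows) in each tissue and treatment (columns, 24 libraries each), on a log2 scale with a pseudocount of 0.5. The lung columns are the brightest, and Tppp3, Rsph9 and Zmynd10 stand out in other tissues.

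Foxj1 separated the lung from the other tissues in normoxia. In normoxia it lay between 41.1 and 105 TPM in the lung (median 55.2) and between 1.89 and 9.15 in the cerebellum (median 3.45). It was at most 0.308 TPM in the kidney, 0.4 in the liver and 0.105 in the muscle. The lung and the cerebellum did not overlap. In the heart it was between 0.00645 and 3.26 TPM with a median of 0.0262, and 5 heart libraries of both treatments were above 0.8 TPM. Those 5 libraries held 361 to 1900 TPM of Scgb1a1, a club cell secretory protein, whose median over the 48 heart libraries was 0.246 TPM, and its part in the heart values was not tested. After IH, Foxj1 had a mean of 50 ± 19.4 TPM in the lung and 5.91 ± 2.28 in the cerebellum, 0.163 ± 0.0567 in the kidney, 0.2 ± 0.0995 in the liver, 0.0311 ± 0.0359 in the muscle and 0.0807 ± 0.184 in the heart.

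A few genes were expressed outside the ciliated tissues. Zmynd10 had a mean of 29.3 ± 5.13 TPM in the kidney, against 13.2 ± 3.36 in the lung (SD, n = 24 each). Rsph9, a radial spoke protein, reached 17.1 ± 2.06 TPM in the kidney and 14.4 ± 4.01 in the cerebellum. Tppp3 reached 153 ± 40.4 TPM in the cerebellum, 92.8 ± 17.8 in the muscle and 47.4 ± 14.1 in the heart. In contrast, Pifo and Mcidas were listed at 0 in 15 and 7 of the 24 kidney libraries.

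Tissues were compared in normoxia with limma on scaled log2(TPM + 0.5), with the normoxia libraries of all 6 tissues in the fit, and a gene was called at a Benjamini-Hochberg adjusted p of 0.05 over all 35487 genes tested and a 1.5-fold change. TPM is relative to all transcripts of a tissue, so these are differences in share of the transcriptome. Against the cerebellum, 33 of 38 genes were higher in the lung (86.8%), where 16.2% of all genes were, and 1 was lower, Dnah7b, where 20.3% of all genes were. The values of 29 of the 38 genes did not overlap between the lung and the cerebellum in either direction, where 18.8% of the 35904 genes of the tables did not. Members called higher were, by role, 3 of the 5 transcription factors and switches, 11 of the 12 dynein chains, 3 of the 4 docking and assembly factors, 6 of the 7 genes of the spokes and central pair and every gene of the other roles. Foxj1 differed most, with a log2 difference of 3.41 ± 0.13 (SE, adjusted p = 1.78e-55), followed by Ccdc40 (3.20 ± 0.09), a ruler protein, and Sntn (3.15 ± 0.10), a protein of the ciliary tip. Dnah7b, an inner arm heavy chain, was 1.13 ± 0.08 lower in the lung on the log2 scale (adjusted p = 6.57e-30), with 0.722, 1.48 and 3.25 TPM (lowest, median and highest) in the lung and 2.28, 3.54 and 7.26 in the cerebellum. Its near copy Dnah7a was higher in the lung by 1.05 ± 0.08, and the authors' quantification may split reads between the 2 genes.

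Against the mean of the kidney, liver, muscle and heart, 38 of 38 genes were higher in the lung, where 13.4% of all genes were, and 0 were lower, where 13.4% of all genes were. Log2 differences ran from 0.61 in Dnah7b to 5.59 in Foxj1. In the cerebellum 23 of 38 were higher than the same mean (60.5%), where 17.1% of all genes were, and 0 were lower, where 16.2% were. Tppp3 (3.07 ± 0.08), Pifo (2.27 ± 0.09), a regulator of cilium disassembly, and Foxj1 (2.19 ± 0.10) led in the cerebellum. These differences are on the log2(TPM + 0.5) scale, which understates the change of low genes. Of 69 other motile cilia genes, 62 were higher in the lung than the cerebellum and 3 lower, while 40 genes of intraflagellar transport and the primary cilium, which non-motile cilia also use, gave 9 higher and 15 lower.

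After IH, the motile cilia genes of the lung moved in both directions. Of the 37 that averaged 1 TPM or more, 3 were higher (8.11%) and 3 were lower (8.11%) than in normoxia, by limma with the same thresholds over 15426 genes. Of all genes tested, 9.12% were higher and 4.39% were lower, so that the share higher was close to the background. The median log2 change of the 37 genes was -0.18, beside -0.08 over all genes tested. At the adjusted p alone, with no minimum of fold change, 10 genes were higher (28.9% of all genes) and 18 lower (41.5% of all genes). With TPM as deposited, without scaling of the libraries, the median of all genes moved to 0.21 and that of the 37 genes to 0.10. On that scale 7 genes were higher (Ccdc114, Dnah3, Dnah10, Rfx3, Ccdc39, Dnah11 and Dnah2), where 18.9% of all genes were, and 0 were lower, where 0.376% of all genes were, so the genes called lower depend on the scale. At an unadjusted p of 0.05, 27 of the 37 genes differed on that scale, where 68.4% of all genes did.

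**Figure D2:**
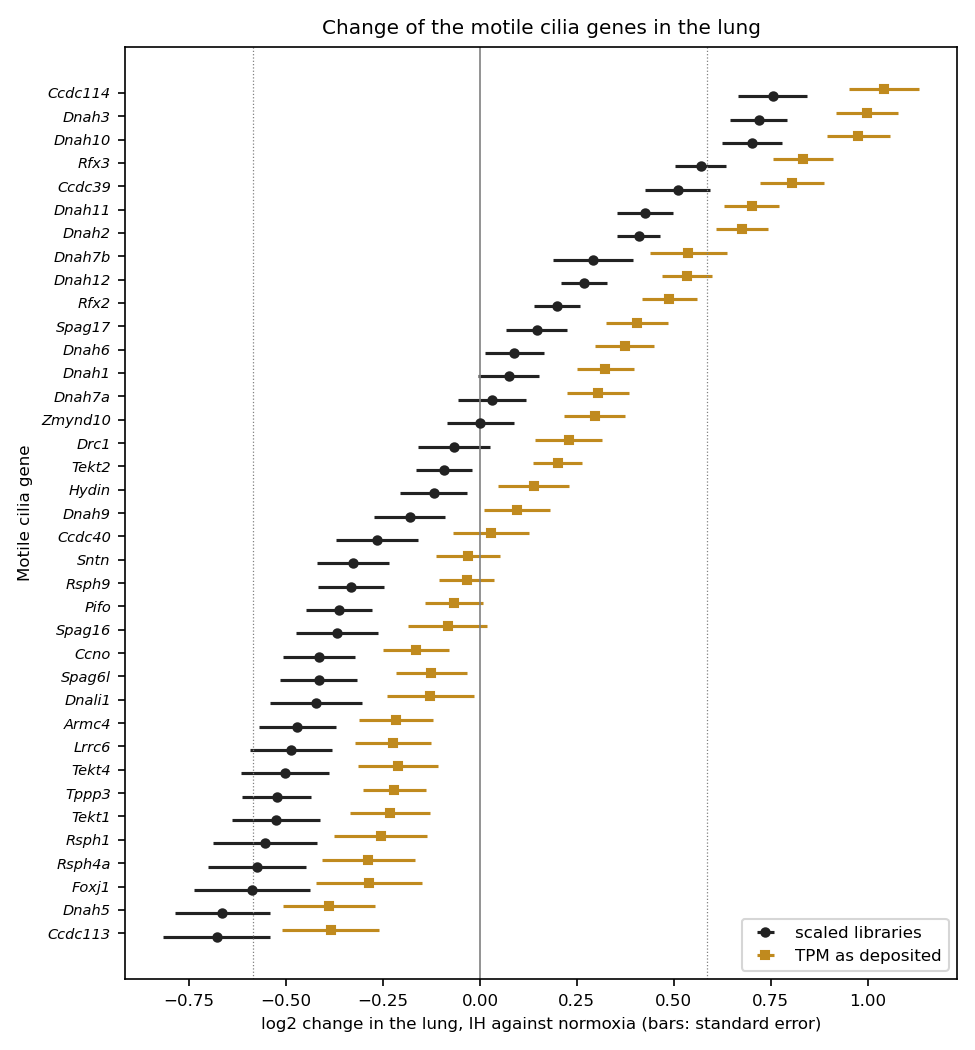
Log2 change in the lung, IH against normoxia, for the 37 motile cilia genes tested, with the standard error as bars, for scaled libraries and TPM as deposited. Dotted lines mark a 1.5-fold change. The order of the genes is much the same on both scales, while values with TPM as deposited sit further to the right.

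The 3 genes called higher bind or form dynein arms. Ccdc114 (chr7:45924072-45948963, GRCm38, plus strand), a protein of the outer arm docking complex, had 3.97, 5.78 and 10.6 TPM (lowest, median and highest of 24 libraries) in normoxia and 6.97, 12.3 and 25.6 after IH. Its log2 change was 0.75 ± 0.09 (SE, adjusted p = 4.07e-10). The groups overlapped between 6.97 and 10.6 TPM. Dnah3 (chr7:119922671-120095280, minus strand), an inner arm heavy chain, had 2.41, 3.74 and 6.11 TPM in normoxia and 3.86, 7.93 and 13.4 after IH, a log2 change of 0.72 ± 0.07 (adjusted p = 1.16e-11). Dnah10 (chr5:124725085-124834308, plus strand), also an inner arm heavy chain, had 2.33, 3.06 and 4.89 TPM in normoxia and 3.31, 6.17 and 11.2 after IH, a log2 change of 0.70 ± 0.08 (adjusted p = 1.07e-10). All 3 were higher after IH at 8 of 8 time points, on both scales.

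The 3 genes called lower were Ccdc113, Dnah5 and Foxj1. Ccdc113 (chr8:95534085-95558890, plus strand), which encodes a coiled-coil protein of the axoneme, had 14.2, 16.6 and 38.6 TPM in normoxia and 5.42, 15.6 and 23.0 after IH, a log2 change of -0.68 ± 0.14 (adjusted p = 2.77e-05). Dnah5 (chr15:28203752-28472052, plus strand) had 4.08, 6.36 and 9.42 TPM in normoxia and 2.36, 4.99 and 8.03 after IH, a log2 change of -0.66 ± 0.12 (adjusted p = 5.65e-06). Foxj1 (chr11:116330704-116335399, minus strand) had 41.1, 55.2 and 105 TPM in normoxia and 17.3, 51.4 and 82.1 after IH, a log2 change of -0.59 ± 0.15 (adjusted p = 0.000517). The groups overlapped widely in all 3, and Foxj1 passed the fold threshold narrowly. Foxj1 was not called without the IH library of replicate 2 at 1:30 (log2 change -0.53), without the normoxia library of replicate 2 with the highest value (-0.54), or with a pseudocount of 1. With TPM as deposited their log2 changes were -0.39, -0.39 and -0.29, and they were not called. Each of the 3 was higher after IH at 0 of 8 time points with scaled libraries. With TPM as deposited, Ccdc113 and Foxj1 were higher at 1 of 8 time points and Dnah5 at 0 of 8.

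The IH lungs of the 3 replicate numbers differed in these genes. In replicate 3, Foxj1 had 50.4, 70.8 and 82.1 TPM after IH (lowest, median and highest of 8 libraries), against 50.1, 55.0 and 61.7 in normoxia. In replicate 1 it had 22.6, 38.3 and 64.2 TPM after IH against 43.4, 51.5 and 66.6 in normoxia. In replicate 2 it had 17.3, 43.3 and 59.5 TPM after IH against 41.1, 56 and 105 in normoxia. The groups thus overlapped in every replicate number, with the lowest IH values in replicates 1 and 2. Fitted within each replicate number alone, a choice made with these values in view, the log2 change of Foxj1 was -0.74, -1.03 and -0.03 in replicates 1, 2 and 3. That of Ccdc113 was -0.57, -1.01 and -0.50, and that of Dnah5 was -0.94, -1.0 and -0.08. In contrast, Ccdc114 was 1.07, 0.76 and 0.40 higher, Dnah3 0.80, 0.67 and 0.66 higher, and Dnah10 0.86, 0.63 and 0.58 higher in replicates 1, 2 and 3. Without replicate 2, 0 genes were called lower (2.51% of all genes) and 3 higher (7.38% of all genes). Without replicate 3, 12 were called lower (9.44% of all genes) and 4 higher (12.7% of all genes).

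**Figure D3:**
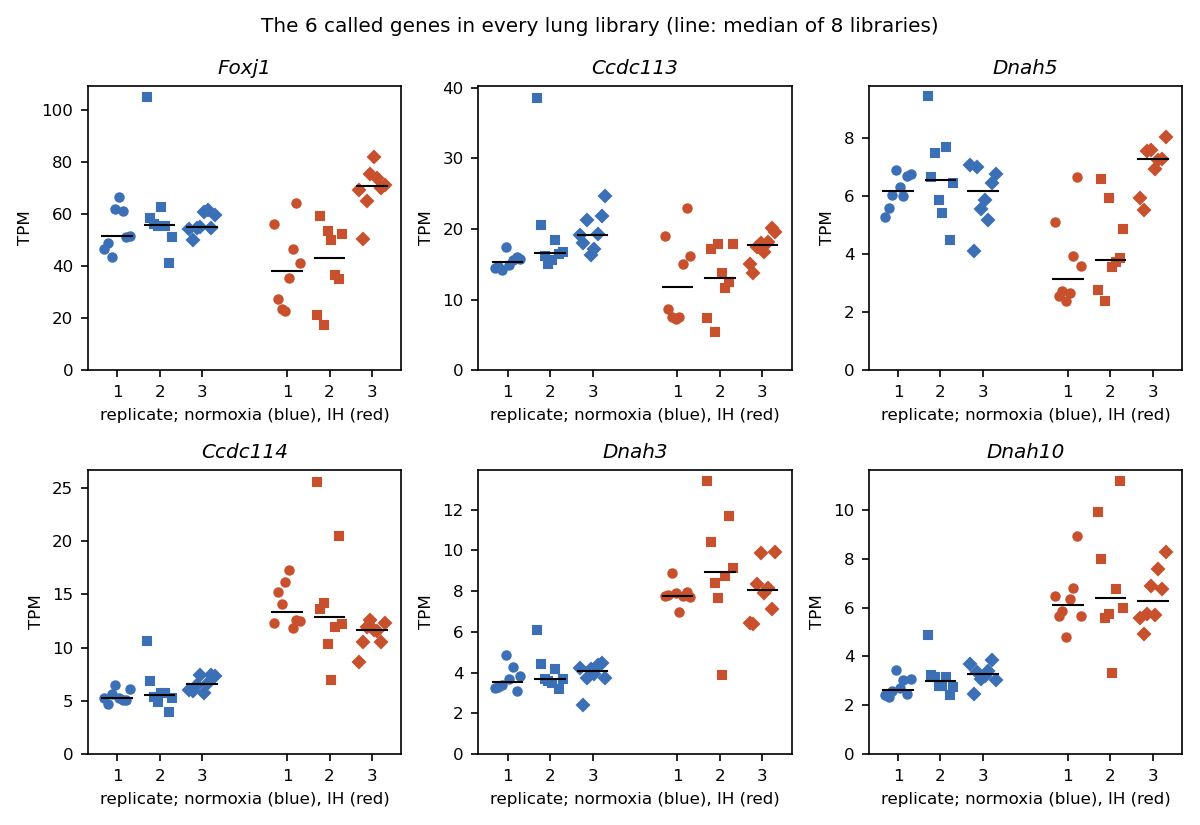
TPM of the 6 motile cilia genes called in the lung, for each library by treatment and replicate number, with the median of 8 libraries as a line. Foxj1, Ccdc113 and Dnah5 have their lowest IH values in replicates 1 and 2, while Ccdc114, Dnah3 and Dnah10 are raised after IH in all 3 replicate numbers.

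Like those of alveolar cells, markers of club and secretory airway cells tended to be lower after IH. The 8 markers (Scgb1a1, Scgb3a1, Scgb3a2, Cyp2f2, Bpifa1, Bpifb1, Muc5b and Reg3g) summed to between 106000 and 245000 TPM in normoxia (median 132000) and between 23100 and 166000 after IH (median 108000), and 0 of the 8 had a median of 0. In 12 of 24 IH libraries the sum was below the lowest normoxia library, and these were 6 libraries of replicate 1, 5 of replicate 2 and 1 of replicate 3. Across the 24 IH libraries, which share their library totals with the markers, Foxj1 was higher where the sum of the markers was higher (both as log2 values, r = 0.96, rho = 0.92, and r = 0.95 without the 2 farthest libraries). In normoxia r was 0.77 and rho 0.31, and r was 0.39 without the 2 farthest libraries, so that relation rests on them. The mean log2 value of all 38 genes was higher where the sum was higher in both treatments, with r = 0.93 and rho = 0.78 in normoxia (r = 0.78 without the 2 farthest) and r = 0.70 and rho = 0.75 after IH (r = 0.75 without the 2 farthest). The sum of 8 alveolar type 2 markers was between 34700 and 51400 TPM in normoxia and between 15400 and 48600 after IH. The sum of 6 alveolar type 1 markers was between 2320 and 4750 and between 1800 and 4580, that of 5 basal cell markers between 3.35 and 31.2 and between 1.9 and 24.4, and that of 6 cartilage markers between 0.278 and 2.43 and between 0.512 and 4.33. Among the club and secretory markers 6 of 8 were called lower by limma, where 4.39% of all genes were. Among alveolar markers it was 5 of 8 of type 2 and 3 of 6 of type 1. Of the club and alveolar markers 0 were called higher. Correlations with the motile cilia genes were computed for the club and secretory markers alone, and not for the alveolar, basal or cartilage markers. The part of these cell types in the changes was not tested. The count of genes above 0 TPM also differed, from 21746 to 25400 in normoxic lungs and from 23622 to 28284 after IH. When the fit held the log2 of that count, an alternative chosen later, 0 members were called higher (4.58% of all genes), Sntn and Pifo were called lower (2 of 37, with 6.36% of all genes), and the log2 change of Foxj1 was 0.19.

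**Figure D4:**
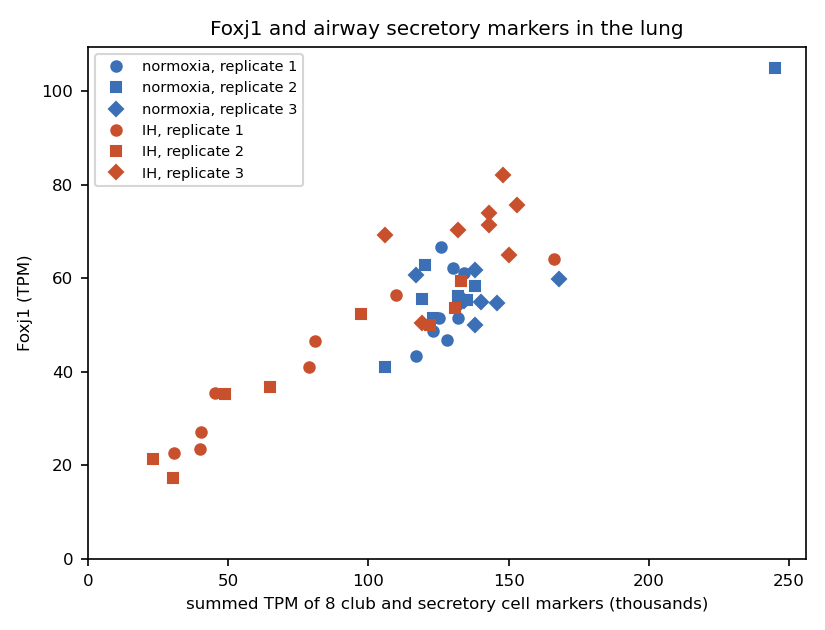
Foxj1 (TPM) against the summed TPM of 8 club and secretory cell markers in each lung library, by treatment and replicate number. IH libraries of replicates 1 and 2 extend to 17.3 TPM of Foxj1 at low marker sums, and 1 normoxia library of replicate 2 stands apart at 105 TPM and a sum of 245000 TPM.

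By role, median log2 changes in the lung ran from -0.50 in the tektins to 0.18 in the dynein arm chains, beside -0.08 over all genes. Among the 12 dynein arm chains 2 were called higher and 1 lower, and each of the others lay between -0.42 and 0.43. Dnah11 and Dnah2 were at 0.43 ± 0.07 and 0.41 ± 0.06, and Dnali1, a light intermediate chain of inner arms, was at -0.42 ± 0.12. Among the transcription factors, Rfx3 was at 0.57 ± 0.07, just under the fold threshold, and Rfx2 at 0.20 ± 0.06, while Ccno was at -0.41 ± 0.09 and the median of the 4 tested was -0.11. Mcidas was below the filter, with medians of 0.629 TPM in normoxia and 0.712 after IH.
The docking and assembly factors had a median of -0.23, with Armc4 at -0.47 ± 0.10, Lrrc6 at -0.49 ± 0.11 and Zmynd10 at 0.001 ± 0.09. The ruler protein Ccdc39 was at 0.51 ± 0.08, its partner Ccdc40 at -0.27 ± 0.11 and Drc1, of the nexin-dynein regulatory complex, at -0.07 ± 0.09. The 7 genes of the radial spokes and central pair had a median of -0.37 with 0 called, with Rsph4a at -0.58 ± 0.13, Rsph1 at -0.56 ± 0.13 and Spag17 at 0.15 ± 0.08. The 3 tektins, filament proteins inside the doublets, had a median of -0.50, with Tekt1 at -0.53 ± 0.11, Tekt4 at -0.50 ± 0.11 and Tekt2 at -0.09 ± 0.07. Among the other cilium proteins, Tppp3 was at -0.52 ± 0.09 and Sntn at -0.33 ± 0.09. Of 68 other motile cilia genes tested, 7 were higher and 4 lower, with a median of -0.18, and of 39 genes of intraflagellar transport and the primary cilium, 1 was higher and 0 lower, with a median of -0.12.

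Change in the lung varied with transcript length among these genes. Over the 37 genes, which share their libraries, the log2 change had r = 0.57 and rho = 0.52 with the log2 length of the longest annotated transcript (GENCODE M21). With TPM as deposited r was 0.55 and rho 0.51. The 13 genes with a transcript of 8000 bases or longer, namely 11 dynein heavy chains, Hydin and Rfx3, had a median log2 change of 0.27, with 10 above 0, and the 24 shorter genes had a median of -0.39, with 5 above 0. Dnah5, the second longest at 15637 bases, was an exception at -0.66. Over all genes tested with a length, 769 long genes had a median of 0.14 and 14442 shorter genes a median of -0.09, while rho over the 15211 genes was 0.21 and r was -0.03. What part transcript length had in the changes was not tested.

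**Figure D5:**
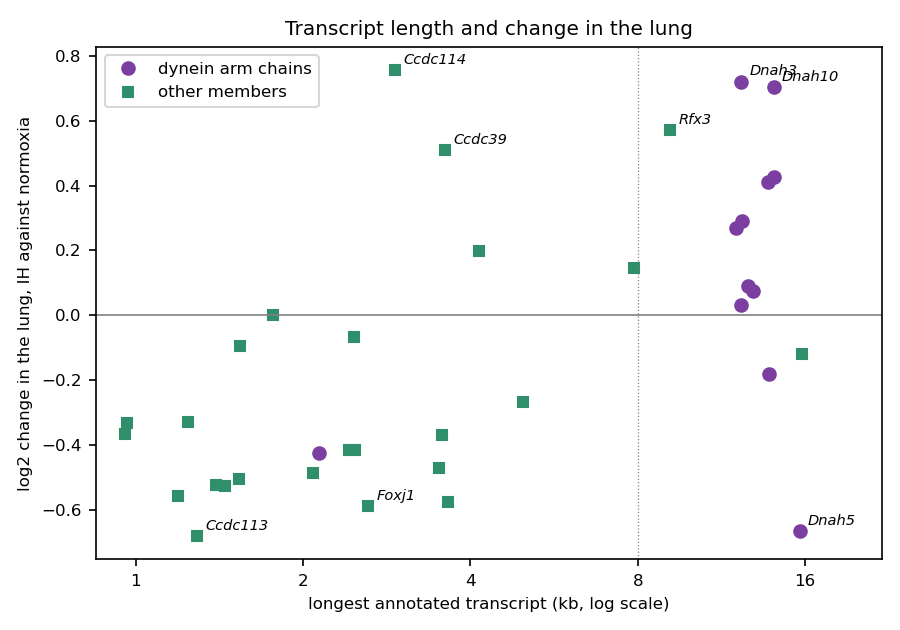
Log2 change in the lung, IH against normoxia, against the longest annotated transcript of each of 37 motile cilia genes (log scale), with dynein arm chains in purple and other genes in green. Most genes to the right of the dotted line at 8 kb lie above 0, apart from Dnah5, Dnah9 and Hydin.

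Correlations among the genes were lower across the IH lungs. Over the 703 pairs of the 38 genes, the median correlation of scaled log2 values across the 24 normoxia lungs was 0.78, and 701 pairs were above 0. Across the 24 IH lungs the median was 0.36, and 501 pairs were above 0. In the IH lungs Foxj1 correlated with Dnali1 and Rsph4a at 0.96 and with Dnah5 at 0.94, but with Ccdc114 at -0.71, Dnah7b at -0.67 and Rfx3 at -0.58. In normoxia the same 3 were at 0.81, 0.66 and 0.39. The normoxia lungs include 1 library of replicate 2 with the highest values of Foxj1 (105 TPM) and Ccdc113 (38.6 TPM). The correlations were not computed without that library, and its part in the normoxia median was not tested. These values describe libraries that share their scale factors, and the difference between treatments was not tested.

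In the cerebellum 20 genes were tested and 0 were called higher or lower after IH by limma, where 1.48% of all genes were higher and 1.16% lower. At an unadjusted p of 0.05, 5 of the 20 genes differed, where 30.3% of all genes did. At the adjusted p alone, Foxj1 was higher (1 of 20, with 9.76% of all genes higher) and Ccdc39, Dnah7b and Spag6l were lower (3 of 20, with 5.24% of all genes lower). Foxj1 had 1.89, 3.45 and 9.15 TPM in normoxia and 0.493, 5.34 and 10.7 after IH, a log2 change of 0.51 ± 0.15 (adjusted p = 0.0154). The lowest of these values came from the IH library of replicate 3 at 1:30, which correlated least with the other cerebellum libraries. Leaving that library out, an alternative also chosen later, gave a log2 change of 0.59, which passed both thresholds. Without replicate 3 it was 0.80 and passed, and in replicate 3 alone it was -0.08. Ccdc39 was at -0.45 ± 0.13 (adjusted p = 0.0161), Dnah7b at -0.41 ± 0.10 (adjusted p = 0.00384) and Spag6l, a central pair protein, at -0.39 ± 0.14 (adjusted p = 0.0460). Markers of the choroid plexus, which carries motile cilia, summed to between 108 and 6230 TPM in normoxia (median 3100) and between 58.6 and 4650 after IH (median 2460), and 0 of the 12 markers had a median of 0. In the same cerebella the 5 liver markers, which share Ttr with that list, had median sums of 3030 TPM in normoxia and 2390 after IH. The 12 choroid plexus markers had a median sum of 6260 TPM in normoxic livers. The sum is therefore not particular to the choroid plexus, and the part of the choroid plexus in these values was not tested. Across the IH libraries the sum of the choroid plexus markers, from the same 24 libraries, correlated with Foxj1 at r = 0.40 and rho = 0.51, and in normoxia at r = 0.31 and rho = 0.42.

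The response to IH differed between the lung and the cerebellum in 7 of 20 genes, by an interaction term in limma. In 3 the change in the lung was higher (15%, with 7.37% of all 13178 genes) and in 4 it was lower (20%, with 13.3% of all genes). The difference in log2 change, lung minus cerebellum, was 1.17 ± 0.24 for Ccdc114, 0.89 ± 0.15 for Ccdc39 and 0.63 ± 0.14 for Dnah7b. It was -1.18 ± 0.22 for Foxj1 (adjusted p = 4.92e-06), -0.81 ± 0.16 for Tppp3, -0.75 ± 0.19 for Ccdc113 and -0.72 ± 0.20 for Rsph1. With TPM as deposited 6 genes were higher (20% of all genes) and 1 lower (1.61% of all genes), Foxj1 at -0.80, so the split between directions also depended on the scale. The fit treated the lung and cerebellum libraries as unrelated, and whether a mouse gave both was not used.

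In the other tissues few of the genes were expressed enough to test and 0 were called. The kidney had 5 tested (0.783% of all genes called in either direction), the muscle 4 (0.374%), the heart 3 (2.95%) and the liver 0 (3.66%). In the kidney, Rsph9 was at 0.16 ± 0.05 (adjusted p = 0.00972) and Dnah7b at 0.19 ± 0.07 (adjusted p = 0.0348), both under the fold threshold. Zmynd10 was at -0.06 ± 0.06 there, with 17.4, 30.1 and 38.1 TPM in normoxia and 16.9, 27.1 and 42.8 after IH.

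A 24-hour rhythm was tested by a cosine fit with limma, at an adjusted p of 0.05. In the lung 0 of 38 genes were rhythmic in normoxia, where 8.33% of all genes were, and 0 of 38 after IH, where 3.1% were. At an unadjusted p of 0.05, 2 genes in normoxia (22.8% of all genes) and 5 after IH (14.2% of all genes) passed. The lowest p after IH was that of Dnah7a, with an amplitude of 0.23 on the log2 scale (adjusted p = 0.0785). In the cerebellum 0 of 32 genes were rhythmic in normoxia, where 0.00482% of all genes were, and 0 of 28 after IH, where 0.0108% were. At an unadjusted p of 0.05, 9 genes in normoxia (21.7% of all genes) and 1 after IH (3.16% of all genes) passed. A difference of rhythm between treatments in the lung was called in 0 of 38 genes and in 0% of all genes, with 0 of the 38 at an unadjusted p of 0.05, where 2.23% of all genes passed.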

How the data were processed

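The deposited values are TPM per gene, which the authors made with Kallisto from strand-specific poly(A) libraries and summed from transcripts to genes. The submitters' processing notes also name bcl2fastq, FastQC 0.11.3, DESeq2 and build mm10. Each of the 288 libraries sums to between 989211 and 999188 TPM, and the read depth of each is unknown. The members and gene lists were chosen with earlier results of these data known.

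Each library was divided by a median-of-ratios scale factor, taken as log2 with a pseudocount of 0.5, and compared with limma 3.58.1 in R 4.3.3 with an intensity trend. Genes needed a mean of 1 TPM or more for treatment (in both tissues for the interaction), a maximum of at least 1 TPM for rhythm, and any value above 0 between tissues. P-values are 2-sided and are adjusted by Benjamini-Hochberg over all genes tested. They treat libraries of different tissues as independent, in the comparison of tissues and in the interaction. Tests were checked on simulated data with independent noise for each gene. That check does not cover variation that genes share within a library. Replicates were separate mice per the study's design.

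All members are named by role, with values for Foxj1 in every tissue, the 5 highest in the lung, members called (up to 12 by size of change) and at most 3 uncalled members per role. Exceptions chosen after their values were seen are the genes named in the kidney, those named for a correlation or a motif, and further uncalled dynein chains and cerebellum genes. Other values came from Python 3.11.15 with numpy 2.4.6, pandas 2.3.3, scipy 1.17.1 and matplotlib 3.10.9. Gene positions and lengths are from GENCODE M21 (GRCm38). Alternatives were other pseudocounts, filters, scaling, fold thresholds, terms for time and replicate number, a linear cosine fit, and leaving out replicate numbers.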

Additional observations from a re-analysis of the deposited data

Results flagged for a closer look

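The response to IH of 7 genes differed between the lung and the cerebellum by the interaction term. The difference in log2 change, lung minus cerebellum, was 1.17 for Ccdc114, 0.89 for Ccdc39, 0.63 for Dnah7b, -0.75 for Ccdc113, -0.72 for Rsph1, -0.81 for Tppp3 and -1.18 for Foxj1. Foxj1 was at -0.59 in the lung and 0.51 in the cerebellum, and Ccdc114 at 0.75 and -0.49. In replicate 3 alone, a later alternative, the difference for Foxj1 was 0.02. When the fit held the count of genes above 0 TPM, the difference for Ccdc114 was -0.03. Dnah7b was not called without replicate 1, and Rsph1 was not called without replicate 2.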

How the results depend on the processing

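In the lung, the number of motile cilia genes called higher after IH (3) was 7 with TPM as deposited, 10 with no minimum of fold change, 0 when the fit held the number of genes detected, and 6 and 1 in replicates 1 and 3 alone. The number called lower (3) was 0 with TPM as deposited, 18 with no minimum of fold change and 14 in replicate 2 alone. Of all genes tested, 2008 of 15476 were higher in replicate 1 alone and 817 of 15033 in replicate 3 alone. In replicate 2 alone, 1593 of 15683 genes were lower. Leaving out each replicate number in turn gave 3 to 4 higher and 0 to 12 lower. In the cerebellum, 1 gene was higher without replicate 3, without the library of lowest correlation, in replicates 1 and 2 alone, and with no minimum of fold change. There, 1 was lower without replicate 3, Ccdc114, and 3 with no minimum of fold change, so leaving out a replicate number gave 0 to 1 in each direction. Without replicate 3, 820 of all 15084 genes were higher and 1151 lower. Without the library of lowest correlation 285 of 14861 genes were higher. In replicates 1 and 2 alone, 633 of 15446 and 783 of 14726 genes were. In the other 4 tissues 2 genes, both higher in the kidney, passed with no minimum of fold change. In that setting 1064 of 12902 kidney genes were higher. The 7 genes that differed between the lung and the cerebellum were 11 with no minimum of fold change, 12 with no filter, 1 when the fit held the number of genes detected and 2 in replicate 3 alone. Of all genes, 2030 of 13178 were higher and 5009 lower with no minimum of fold change. With no filter 3124 of 34760 were higher and 1967 lower. The counts were 428 and 1073 of 13178 with the number of genes detected, and 641 and 1275 of 12797 in replicate 3 alone. The genes higher in the lung than the cerebellum (33) were 20 of the 24 tested when a mean of 1 TPM was required. Of all genes, 4970 of 15492 were higher in that setting. With a 4-fold change required they were 16, with 0 lower, where 2033 of all 35487 genes were higher and 1901 lower. Against the other 4 tissues, 24 of 24 genes were higher in the lung with a mean of 1 TPM, where 4011 of 15492 genes were. With a 4-fold change 25 were higher in the lung (1195 of 35487 genes) and 3 in the cerebellum (1772 of 35487 genes). When the fit held the number of genes detected, the lung change of Foxj1 was 0.19 and the difference between tissues for Ccdc114 was -0.03. In replicate 3 alone the difference for Foxj1 was 0.02. The cause was not tested in any of these, beyond the fewer genes or samples that a filter, a fold threshold or a left-out replicate leaves.

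Replicate numbers are shared by both treatments. Deviations of same-numbered lungs at a time point correlated over genes with a median of -0.15 (6 of 24 pairs over 0.1), and of cerebella with -0.02 (8 of 24), so the numbers did not pair the samples. The replicate block kept 3 higher and 3 lower in the lung, where 1408 and 678 of all 15426 genes were. The same block gave 2 of 38 genes with a rhythm in the lung after IH, Rfx2 and Dnah7a, against 0 without it. Of all 20007 genes, 1161 had a rhythm with the block and 621 without it. Alternatives with the number of genes detected, replicates alone, and without the library of lowest correlation or the normoxia lung of highest club marker sum, were chosen after the values were known. Without read counts, the precision of low values is unknown.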
